A study of Mus musculus with 8 samples.

Results

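Among the small RNAs of the mouse testis, 608 Piwi-interacting RNAs (piRNAs) had levels that did not overlap between males fed a standard diet (SD) and males fed a Western-like diet (WD) rich in sugar and fat. They were selected on the measured values themselves. A piRNA was eligible when its raw read count averaged 30 or more over the 8 mice and it was not among the 200 piRNAs of highest mean level, and 11549 of the 18975 piRNAs listed met this. The eligible piRNA was kept when every WD mouse lay above every SD mouse, or every WD mouse below every SD mouse, in CPM, the count of a small RNA per 1000000 counts of that mouse. This gave 288 piRNAs that were higher in WD, 2.49% of the eligible ones, and 320 that were lower in WD, 2.77%. Because the diet contrast chose them, their differences between diets are given below as descriptions, without a test.

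The mice were adult C57Bl/6 males, with no other genotype stated. The SD group comprised 4 mice, whose names M1N, M2N, TN1 and TN2 start with M or with TN, and the WD group comprised the 4 mice M1W, M2W, M3W and M5W. The labels place the start of the high-lipid diet at 4 weeks of age and mating at 4 months, in a sentence attached to all 8 mice that was not applied to the controls. The published methods give a younger age for the division into diet groups. Each sample, named and treated here as 1 mouse, gave 1 library from testis, so that fewer cells of a type and less RNA per cell cannot be told apart.

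piRNAs are small RNAs of the male germ line that are bound by PIWI proteins, the germline branch of the Argonaute family. In the mouse they guide the silencing of transposable elements in fetal germ cells, and a second, far more abundant population is produced from long single-stranded precursor transcripts in spermatocytes and round spermatids. A precursor is cut into many piRNAs, so neighbouring piRNAs share a source and are not independent measurements. The members carry names of the database of non-coding RNAs (FR and a number), which say nothing of the transposon or precursor that each matches.

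The total count ranged from 2064562 in TN2 to 3253798 in M2N, and piRNAs made up 84.4% of it in M2W to 88.6% in TN2. The tissue label was met by the germ-cell miRNAs miR-34c, miR-34b, miR-449a and miR-202, all 4 listed, which summed to 16839 to 19656 CPM in SD and 16706 to 21266 CPM in WD. Several markers followed the names of the SD mice. The liver miRNA miR-122-5p, the only one of its list, was at 15.8 CPM in TN1 and 13.6 CPM in TN2 and at 0 in the other 6 mice. miR-449a-5p, a miRNA of meiotic and postmeiotic germ cells, reached 2065 CPM in M1N and 1580 CPM in M2N, against 868 to 1131 CPM in the other 6 mice. miR-202-5p of the same list had the opposite order, with 3061 CPM in M1N, 3759 in M2N, 4191 in TN1, 4111 in TN2 and 4234 to 6824 CPM in WD, so that its diets did not overlap. Red-cell miRNAs (2 of 4 listed) summed to 59.7 CPM in M1N, 36.9 in M2N, 152 in TN1 and 120 in TN2, and 77.4 to 131 CPM in WD. Leukocyte miRNAs (3 of 3) summed to 274 CPM in M1N, 214 in M2N, 128 in TN1 and 127 in TN2, and 102 to 252 CPM in WD. This sum was mostly miR-223-3p (267 and 198 CPM in the M mice, 109 and 104 CPM in the TN mice), whereas miR-142-3p went the other way, with 5.85 and 13.2 against 15.8 and 17.4 CPM and 17.7 to 21.4 CPM in WD, where it did not overlap with SD, as did the mean of miR-155-5p, with 2.31 against 4.28 CPM and a WD mean of 4.49 CPM. Muscle (2 of 3), endothelial (1 of 2) and stromal (2 of 3) miRNAs had overlapping ranges in both diets, of 32.9 to 48.4 and 26.9 to 51.5 CPM, 1034 to 1481 and 980 to 1780 CPM, and 3198 to 4165 and 3354 to 5894 CPM. Within the SD mice the endothelial miR-126-3p was at 1347 and 1481 CPM in M1N and M2N and 1106 and 1034 CPM in TN1 and TN2. The stromal miR-145-5p had the same order (3578 and 3879 against 3156 and 2777 CPM), and miR-143-3p the opposite one (148 and 285 against 363 and 420 CPM, with 317 to 607 CPM in WD). The part of these differences in the piRNA levels was not tested.

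The 288 piRNAs that were higher in WD had a median level of 17.4 CPM in M1N, 21.7 in M2N, 24.99 in TN1 and 26.6 in TN2, against 34.8 CPM in M1W, 31.9 in M2W, 32.9 in M3W and 35.4 in M5W. The 4 WD mice were close to each other, whereas the SD mice formed a graded series with M1N farthest from WD and the TN mice nearest to it. The median over all eligible piRNAs moved far less, from 30.5 CPM in M1N and 32.9 in M2N to 34.8 in TN1 and 35.8 in TN2, with 34.05 to 35.9 CPM in WD. Together the 288 piRNAs took 0.747% of all counts in M1N, 0.941% in M2N, 1.11% in TN1 and 1.13% in TN2, and 1.31% to 1.45% in WD.

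The 320 piRNAs that were lower in WD mirrored this order. Their median level was 58.8 CPM in M1N, 54.1 in M2N, 47.1 in TN1 and 47.0 in TN2, and 36.0 CPM in M1W, 38.8 in M2W, 38.7 in M3W and 37.5 in M5W. They took 2.97% and 2.60% of the counts in M1N and M2N, 2.29% and 2.30% in TN1 and TN2, and 1.84% to 1.94% in WD. In both directions the M mice were thus the SD mice farthest from WD.

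**Figure D1:**
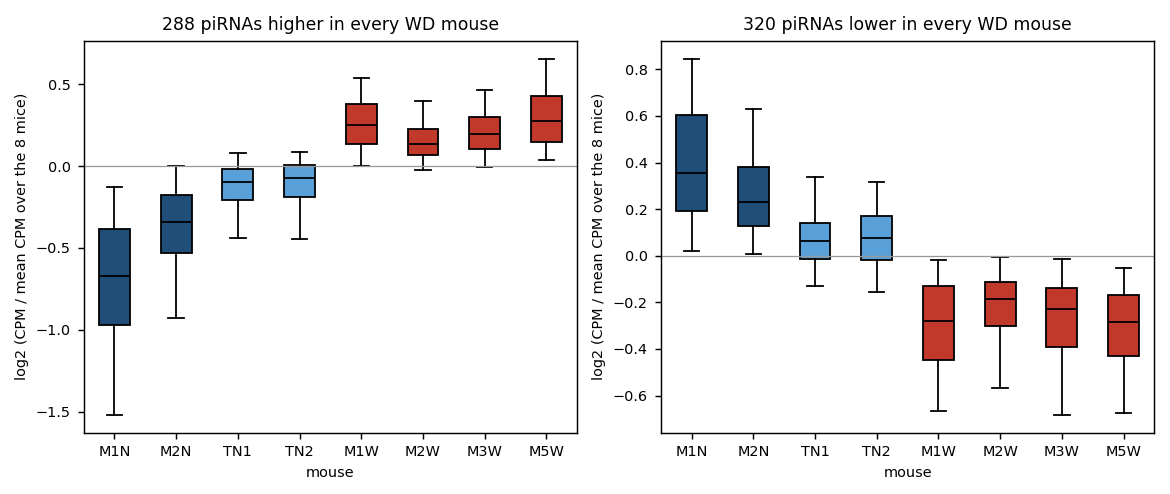
Each member's CPM in each mouse is plotted as log2 of its ratio to that member's mean over the 8 mice, for the 288 piRNAs higher in WD (left) and the 320 lower in WD (right). Boxes span the quartiles with the median as a line and whiskers reach the 5th and 95th percentiles of the piRNAs, with the M mice in dark blue, the TN mice in light blue and WD in red. In the left panel the medians run from -0.67 in M1N and -0.34 in M2N to -0.10 in TN1 and -0.08 in TN2 and lie at 0.14 to 0.28 in WD.

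The differences in mean level were small. For the piRNAs higher in WD the log2 ratio of mean CPM, WD over SD, had a median of 0.53 and ran from 0.12 to 1.22, and for those lower in WD the median was -0.49, with a range of -1.11 to -0.15. The median over all eligible piRNAs was 0.03. A 1.5-fold difference of the means was reached by 107 of the 288 and 101 of the 320 members, and a 2-fold difference by 6 and 2. By comparison, 862 eligible piRNAs differed 1.5-fold and 33 differed 2-fold, so most of the piRNAs with such ratios had overlapping diets.

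FR163185 had the largest ratio among the members higher in WD. Its level was 1.85 CPM in M1N, 6.45 in M2N, 11.6 in TN1 and 7.27 in TN2, and 14.3, 17.9, 13.4 and 17.8 CPM in M1W, M2W, M3W and M5W, a log2 ratio of 1.22. The M1N value rested on 6 reads, and no member had fewer in any mouse. FR336236 followed with 8.003, 6.45, 13.5 and 12.6 CPM in M1N, M2N, TN1 and TN2 against 22.2, 17.9, 26.9 and 24.9 CPM in the WD mice (log2 ratio 1.18). FR178265, the most abundant of the 10 with the largest ratios, was at 20.01, 16.9, 26.4 and 32.0 CPM in SD and at 53.9, 33.2, 61.6 and 59.8 CPM in WD (log2 ratio 1.13). Its lowest WD mouse, M2W, stood only 1.04 times above TN2, whereas the other 3 WD mice were well clear of every SD mouse.

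The remaining 7 of these 10 were FR394595, FR348456, FR040011, FR139045, FR292031, FR290232 and FR138070, with log2 ratios of 1.12 down to 0.91. In FR394595 the values were 2.46 CPM in M1N, 10.4 in M2N, 17.4 in TN1 and 21.3 in TN2, and 29.7, 21.8, 24.5 and 36.5 CPM in WD. The TN mice were thus nearer to the WD mice than to the M mice. FR040011 showed the same order, with 6.16 CPM in M1N, 9.22 in M2N, 16.4 in TN1 and 18.4 in TN2, and 26.9, 23.6, 23.6 and 28.1 CPM in WD.

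Among the members lower in WD, FR113856 had the largest ratio, -1.11 on the log2 scale. It was at 30.2 CPM in M1N, 16.9 in M2N, 10.3 in TN1 and 10.2 in TN2, and at 7.85, 6.98, 8.33 and 8.08 CPM in the 4 WD mice. The TN mice lay just above WD and far below M1N. FR391565, with 23.4, 34.1, 20.6 and 25.7 CPM in SD and 11.9, 16.6, 13.4 and 9.05 CPM in WD (log2 ratio -1.03), had no such order among its SD mice. FR312454 had 80.6 CPM in M1N, 67.9 in M2N, 40.3 in TN1 and 53.3 in TN2, and 33.8, 34.5, 32.4 and 25.2 CPM in WD (log2 ratio -0.94).

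The next 7 in this direction were FR158772, FR141357, FR142357, FR306285, FR342664, FR016357 and FR088853, with log2 ratios of -0.90 to -0.86. A single SD mouse carried much of the difference in some of them. FR141357 had 95.4 CPM in M1N against 47.9, 43.9 and 34.9 CPM in M2N, TN1 and TN2 and 31.7, 26.6, 32.9 and 27.8 CPM in WD. FR342664 had 23.4 CPM in M2N against 10.2, 13.9 and 15.02 CPM in M1N, TN1 and TN2 and 9.21, 9.17, 6.95 and 8.73 CPM in WD.

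**Figure D2:**
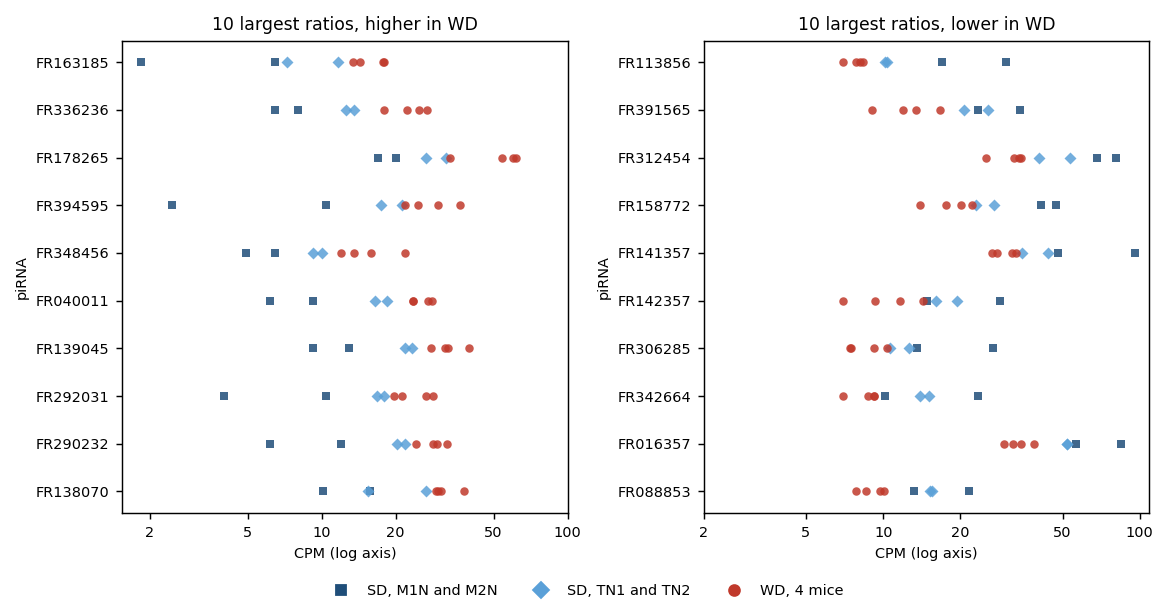
CPM on a log axis in each of the 8 mice for the 10 members with the largest ratio of mean CPM in each direction, higher in WD on the left and lower in WD on the right. Each point is 1 mouse, and in rows such as FR040011 and FR113856 the TN mice (light diamonds) lie between the M mice (dark squares) and WD (red circles), while in FR391565 the SD pairs are interleaved.

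The most abundant members had smaller ratios. FR138701, the exception, was at 85.3 CPM in M1N, 137 in M2N, 252 in TN1 and 278 in TN2, and 369, 285, 300 and 389 CPM in WD, a log2 ratio of 0.84. FR208295, FR341748, FR326598 and FR376167, the others of the 5 most abundant that were higher in WD, had log2 ratios of 0.24 to 0.42. Of these, FR341748 was at 206, 232, 262 and 274 CPM in SD and 274, 292, 291 and 294 CPM in WD, so that TN2 and M1W nearly touched.

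The 5 most abundant members lower in WD were FR086452, FR145786, FR176076, FR329697 and FR094786, with log2 ratios of -0.42 to -0.15. FR086452 was at 498, 424, 425 and 455 CPM in SD and 388, 374, 346 and 395 CPM in WD. FR145786 was at 421, 419, 440 and 419 CPM in SD and 412, 403, 355 and 357 CPM in WD, a log2 ratio of -0.15. Here the SD mice were tighter than the WD mice.

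The directions were unevenly spread over levels, which is given without a test. With the eligible piRNAs in 4 bins of about equal size by mean count, the share that was higher in WD went from 3.29% and 2.87% in the lower 2 bins to 2.63% and 1.18% in the upper 2, and the share that was lower in WD from 1.97% and 1.94% to 3.71% and 3.46%. The median mean count was 77.4 for members higher in WD, 124 for those lower in WD and 94.6 for the eligible piRNAs.

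How far apart the diets lay was measured at the border, as the CPM of the nearest mouse of the higher diet over that of the nearest mouse of the lower diet. The median of this ratio was 1.04 in both directions. It reached 1.1 in 71 of the members higher in WD and 69 of those lower in WD. The exact 95% Poisson intervals of the 2 mice at the border overlapped in all 608 members, 0 of them having intervals apart. These intervals cover counting error only, and overlap of intervals is not a test.

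Members with the widest borders were mostly low in count. FR135949 was at 12.005, 11.7, 16.4 and 15.5 CPM in SD and at 22.5, 22.3, 22.2 and 22.3 CPM in WD, a border ratio of 1.35 and a log2 ratio of 0.68. Its border mice were TN1 with 51 reads (16.4 CPM, 12.2 to 21.6) and M3W with 48 reads (22.2 CPM, 16.4 to 29.5). The next were FR336236 (1.32), FR142978 (1.29), FR358180 (1.29) and FR040011 (1.28). FR142978 had 7.39, 10.1, 9.67 and 7.27 CPM in SD and 13.3, 13.1, 13.9 and 14.6 CPM in WD, without an order between M and TN mice.

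FR019169 had the widest border of all, with a ratio of 1.45. It was at 15.1, 13.8, 15.8 and 15.02 CPM in SD and 9.55, 9.17, 8.80 and 7.44 CPM in WD. The border mice held 45 reads in M2N (13.8 CPM, 10.1 to 18.5) and 28 reads in M1W (9.55 CPM, 6.35 to 13.8). FR033233 came next at 1.41, with 22.2, 23.05, 22.6 and 23.7 CPM in SD and 12.6, 15.7, 9.26 and 13.9 CPM in WD. In both piRNAs the 4 SD mice were nearly equal, unlike in most members. FR016357 (1.33), FR088853 (1.32) and FR168659 (1.31) completed the 5 widest borders among those lower in WD.

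**Figure D3:**
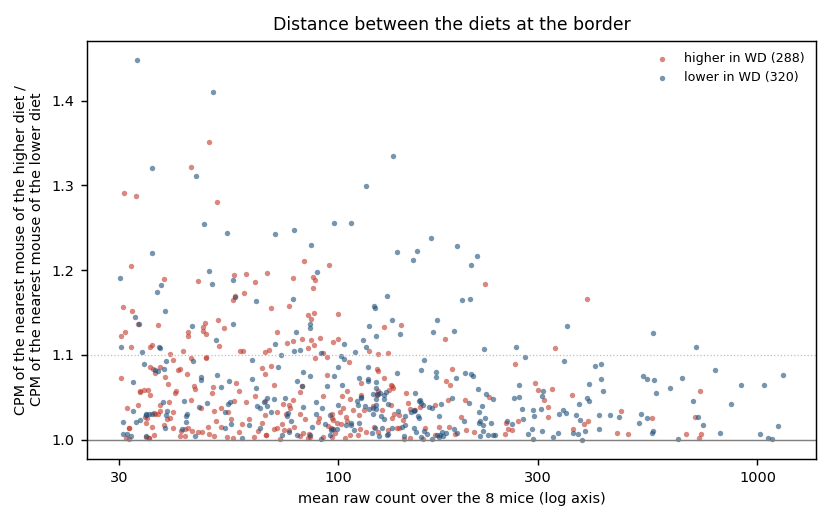
The ratio of CPM between the nearest mice of both diets is plotted against the mean raw count over the 8 mice (log axis) for the 608 members, with a dotted line at 1.1. Most points lie under the dotted line, and the widest borders, up to 1.45, belong mostly to piRNAs with low counts. FR016357, with a ratio of 1.33, had a mean count of 135.

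At the threshold the members passed by fractions of a read. FR067526 (1.0006), FR239545 (1.0013) and FR183719 (1.0013) were the closest inside among those higher in WD, and FR088231 (0.9998), FR394206 (0.9996) and FR283924 (0.9995) the closest outside. Among those lower in WD, FR389246 (1.0002), FR084289 (1.0004) and FR024362 (1.0005) were just inside, and FR230641 (0.9999), FR316553 (0.9999) and FR291020 (0.9998) just outside. FR283924 shows how near an excluded piRNA could be, with 16.3, 17.8, 28.4 and 30.03 CPM in SD and 30.02, 34.05, 31.02 and 32.7 CPM in WD.

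The mouse at the SD border was a TN mouse in 244 of the 288 members higher in WD (138 TN2 and 106 TN1) and in 256 of the 320 lower in WD (122 TN2 and 134 TN1). At the far end stood M1N, which was the lowest SD mouse in 207 of the 288 and the highest in 192 of the 320. These positions were not counted over the eligible piRNAs. There the WD mean was nearer to the mean of TN1 and TN2 than to that of M1N and M2N in 9167 of 11549. The counts are therefore not read as a trait of the members. On the WD side M2W was most often at the border, in 118 and 109 members, followed by M3W in 73 and 84. TN2 and M3W had the smallest totals, and M2W the lowest share of piRNAs.

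The WD mean was nearer to the TN pair than to the M pair in 262 of the 288 and 270 of the 320 members. The same held for 9167 of the 11549 eligible piRNAs, so this order was not particular to the members. The log2 ratio of WD to M1N and M2N had a median of 0.72 in members higher in WD and -0.60 in those lower in WD. Against TN1 and TN2 the medians were 0.34 and -0.32. These ratios share the 4 WD mice. With TMM factors the medians were 0.60 and -0.74 against the M pair and 0.36 and -0.30 against the TN pair. A 1.5-fold difference from the M pair was reached by 186 of the 288 and 167 of the 320 members, and from the TN pair by 17 and 22. Among the eligible piRNAs 2454 were higher and 1159 lower in WD by 1.5-fold against the M pair, against 55 and 54 for the TN pair.

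**Figure D4:**
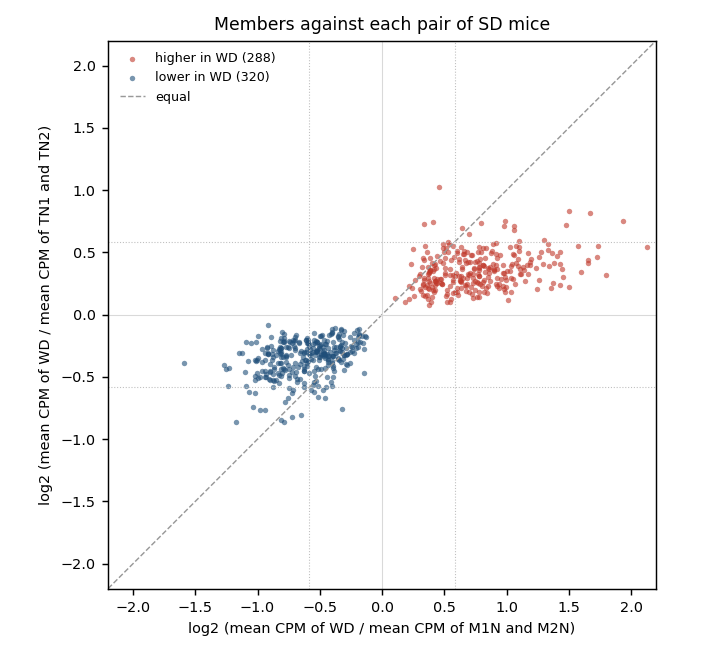
The log2 ratio of mean CPM in WD to that in TN1 and TN2 (vertical) is plotted against the ratio to M1N and M2N (horizontal) for the 288 members higher in WD (red) and the 320 lower in WD (blue). Dotted lines mark 1.5-fold and the dashed line equal ratios. Most points lie on the side of the dashed line where the distance from the M pair is the larger one. The same held for 9167 of the 11549 eligible piRNAs, most of which are not drawn.

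A 1.5-fold difference from both pairs was seen in 13 members higher in WD and 16 lower in WD, beside 28 higher and 18 lower among all 11549 eligible piRNAs. Since the rule used these values, nothing is read from the counts. All 13 and all 16 stayed non-overlapping when CPM were scaled by TMM factors, by DESeq2 size factors or by the piRNA total. By the naming rule, FR163185, FR336236, FR178265, FR348456, FR138070, FR358180 and FR142978 were among the former, and FR391565, FR142357, FR342664, FR016357, FR088853, FR033233, FR019169 and FR168659 among the latter. FR046444, named after its values were seen, was the most abundant of the 29, with a mean of 88.0 CPM in M1N and M2N, 83.3 CPM in TN1 and TN2 and 51.3 CPM in WD. Its SD pairs were close, and its border ratio was 1.23.

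Had only M1N and M2N served as controls, 3307 eligible piRNAs (28.6%) would have been higher in all WD mice and 2074 (18%) lower. With TN1 and TN2 alone the counts were 479 (4.15%) and 877 (7.59%). The 288 members higher in WD were 8.71% of the first of these lists and 60.1% of the third, and the 320 lower in WD were 15.4% of the second and 36.5% of the fourth. A pair of mice is easier to clear than 4, so each of these lists contains the members by construction.

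The difference between the SD pairs is another contrast than the one the rule used. It was tested over all small RNAs with edgeR's quasi-likelihood test in a fit of 3 groups (M1N and M2N, TN1 and TN2, WD), with Benjamini-Hochberg adjustment over all small RNAs tested and a threshold of 0.05. Of the eligible piRNAs, 643 (5.57%) were called higher in TN and 624 (5.4%) lower in TN. The rule chose the members on the levels of these same mice, so their counts in this test are a description and support nothing. Among the members higher in WD, 17 of 288 (5.90%) were higher in TN and 0 lower. Among those lower in WD, 33 of 320 (10.3%) were lower in TN and 0 higher. The first share is near that of all eligible piRNAs. In a fit of the 4 SD mice alone, 4 of 288 (1.39%) and 7 of 320 (2.19%) were called in these directions, beside 2.39% and 2.41% of the eligible piRNAs, so neither share stood above the background there. When library sizes were column totals alone, 28 (9.72%) and 10 (3.12%) were called in these directions, beside 8.56% and 2.63% of the eligible piRNAs. When M1N, TN1 or TN2 was left out, no member was called, and at most 0.502% of the eligible piRNAs in either direction. Without M2N 47 (16.3%) and 84 (26.2%) were called, beside 9.88% and 11.1% of the eligible piRNAs.

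Without a threshold, the mean of TN1 and TN2 was above that of M1N and M2N in 262 of the 288 members higher in WD (91.0%) and in 50 of the 320 lower in WD (15.6%), beside 60.4% of the eligible piRNAs. This balance moved with the scaling, because the median log2 ratio of TN to M over the eligible piRNAs was 0.14 with column totals, 0.11 with piRNA totals and -0.02 with TMM factors or DESeq2 size factors. With TMM factors TN was above M in 221 of the 288 (76.7%), in 4 of the 320 and in 48.9% of the eligible piRNAs. The member medians of this log2 ratio were 0.38 and -0.25 with column totals and 0.23 and -0.41 with TMM factors. In both directions the TN pair thus lay on the WD side of the M pair under either scaling. The rule chose the members on the levels of these same mice, so this order is a description and supports nothing. FR138701, with the values given above, had a fitted log2 difference, TN over M, of 1.12. The 10 members with the widest borders had fitted differences from -0.59 in FR016357 to 1.03 in FR040011.

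The 3 members of each direction whose SD pairs differed most were chosen for that difference, so their values are given without a test. In the direction higher in WD these were FR394595, given above, FR031566 and FR156979. FR031566 had 6.46 CPM in M1N, 8.61 in M2N, 20.6 in TN1 and 21.3 in TN2 and 21.4 to 31.04 CPM in WD, so that its TN mice nearly met the lowest WD mouse. Among those lower in WD they were FR113856 and FR141357, given above, and FR098003. FR098003 was at 66.2 CPM in M1N, 52.2 in M2N, 30.6 in TN1 and 33.9 in TN2, and 29.0, 28.8, 30.1 and 23.0 CPM in WD.

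Spread within the diets also differed, in the eligible piRNAs as a whole as well as in the members. The median coefficient of variation of members higher in WD was 20.6% over the SD mice and 10.7% over the WD mice. It was larger in SD for 232 of the 288 (80.6%). For members lower in WD the medians were 14.8% and 11.1%, with 208 of 320 (65%) larger in SD. Among all eligible piRNAs it was larger in SD for 69.1%, with medians of 21.6% and 15.4%. The rule favours piRNAs of low spread, and the coefficient divides by the mean, on which the members were also chosen. Neither the medians nor the balance between diets is therefore read as a trait of the members.

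Between the diets themselves, edgeR called 0 of 16054 piRNAs (0%) at an adjusted p under 0.05, the members included. DESeq2 and limma-voom also called 0. The choice of SD mice turned this result, since edgeR called 3500 of 16527 piRNAs (21.2%) with M1N and M2N as the only SD mice, and 0 with TN1 and TN2, where 524 had an unadjusted p under 0.05. At an unadjusted p under 0.05 edgeR had 2341 piRNAs (14.6%), and DESeq2 and limma-voom 2079 and 2377. Of the members, 188 higher and 277 lower in WD were in the edgeR count, from which nothing is read since the rule used this contrast.

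The rule was also applied to the other 34 divisions of the 8 mice into 4 and 4, as a description. Non-overlapping piRNAs numbered 109 to 1335 in them, with a median of 218, and the 608 of the diets ranked 6. The 5 divisions with more all placed M1N and M2N on the same side. Over the 14 other divisions that kept M1N and M2N together the number was 226 to 1335, and over the 20 that parted them 109 to 256. The largest number, 1335, set M1N, M2N, TN1 and M2W against the rest.

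Names that follow each other in the database need not neighbour each other in the genome, but were counted as a check on shared reads. Of 281 eligible pairs with consecutive names, 27 held 1 member and 1 held 2. That pair was FR224421 and FR224422, both lower in WD. FR224421 was at 13.5, 26.7, 12.3 and 10.7 CPM in SD and 8.19, 10.04, 8.33 and 10.3 CPM in WD, and FR224422 at 23.1, 25.5, 21.3 and 13.1 CPM in SD and 11.9, 12.2, 12.04 and 11.6 CPM in WD. No members had identical counts. How a read that matched several piRNAs was counted is not given in the sources used here, so similar piRNAs may share reads.

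Membership depended on the scaling for part of the list. Under all of TMM factors, DESeq2 size factors and piRNA totals, 231 of the 288 (80.2%) and 218 of the 320 (68.1%) stayed non-overlapping. Of 45 members named by the rule, 10 did not stay so under every scaling, namely FR208295, FR067526, FR158772, FR145786, FR176076, FR329697, FR389246, FR084289, FR024362 and FR098003. The lists counted afresh were 327 higher and 331 lower with TMM factors, 337 and 320 with DESeq2 size factors, and 366 and 254 with piRNA totals, so the last moved the share of higher members from 47.4% to 59.0%. The median ratio of the eligible piRNAs moved by at most 0.05 on the log2 scale.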

How the data were processed

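Small RNA of 8 testes was sequenced on a SOLiD instrument. The authors cut each read at its adaptor, or after 31 bases where none was seen. Bowtie placed the reads on mm9 with up to 2 mismatches, and miRBase 18, Rfam and ncRNA.org supplied the names. The deposited values are raw counts, 1 column per mouse, that were not normalised. Versions, and the treatment of reads that matched more than once, are not given in the sources used here. DESeq is named in the submitters' processing notes.

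CPM were computed over all rows of a column. Intervals are exact Poisson intervals at 95%, and cover counting error only. The labels do not say outright that each sample is a separate animal, so p-values measure the spread between these samples, which may be technical. No pair of libraries was alike within counting noise. Fits used edgeR 4.0.16 (TMM, filterByExpr with a minimum count of 10, glmQLFit, glmQLFTest), DESeq2 1.42.0 and limma 3.58.1 in R 4.3.3, over all small RNAs, and were tested on simulated data. Alternatives were other scalings, count minimums and tests, each pair of SD mice, a replicate block and each mouse left out. The members, marker lists and tests were chosen with earlier results of these data known. In each direction the piRNAs named are the 10 with the largest ratio, the 5 with the widest border, the 5 most abundant, the 3 nearest to the threshold on each side and the 3 whose SD pairs differ most. FR046444, FR224421 and FR224422 were named after their values were seen. The mice M1N and M1W carry the same number, as do M2N and M2W, across diets, with no pairing stated.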

Additional observations from a re-analysis of the deposited data

Results flagged for a closer look

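In groups of 4 mice, a value was picked out where its gap to the nearest other mouse, as a part of the group's range, passed Dixon's 95% critical value. Of 108 groups examined 9 met this. For unselected groups chance would give about 5.4, but most groups were CPM of piRNAs named for these same values. That number is therefore no fair reference, and the flags are descriptions only. The total count of TN2 (2064562) had a gap of 0.872 of the SD range. Among members, FR208295 was low in M1N (144 CPM against 253 to 271 CPM in the other SD mice, gap 0.856), FR016357 high in M1N (84.6 against 51.8 to 56.5 CPM, 0.856) and FR168659 high in M2N (27.0 against 17.7 to 18.9 CPM, 0.876). TN1 was the high SD mouse for FR326598 (262 against 232 to 236 CPM, 0.884) and FR145786 (440 against 419 to 421 CPM, 0.897). In WD, M5W was high for FR138070 (37.8 against 29.2 to 30.6 CPM, 0.84), and M1W was low for FR341748 (274 against 291 to 294 CPM, 0.84) and high for FR376167 (330 against 269 to 270 CPM, 0.973).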

How the results depend on the processing

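The numbers of members, 288 higher and 320 lower in WD, stayed within 1.5 times under every scaling tried, with a minimum mean count of 10, and with the 200 most abundant piRNAs kept in. They were 98 and 198 with a minimum of 100, 71 and 69 with a border ratio of 1.1 or more, 3307 and 2074 against M1N and M2N alone, and 479 and 877 against TN1 and TN2 alone. With no minimum count, 508 were higher. Leaving out each mouse in turn gave 328 to 979 higher and 429 to 798 lower, the most without TN2 (979 and 798). Without M2W they were 795 and 683, without TN1 635 and 590, without M3W 511 and 540, and without M1W 509 were lower. Fewer mice are easier to separate.

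Between diets the 0 calls of edgeR held in every fit with all mice, with any 1 mouse left out and with the TN pair alone, and became 3500 with the M pair alone. With the shared number as a replicate block, M1N, M2N, M1W and M2W gave 1128 calls, and without it 1003, a fit added after seeing the data. Mice of the same number did not deviate together (r = -0.060 over 11549 piRNAs between the M1N to M2N and the M1W to M2W difference). So few mice cannot show whether those of the same number were paired in handling, and no conclusion is drawn. Between the SD pairs, 1423 piRNAs were called, 627 in a fit of the 4 SD mice alone, and 24 to 2765 when a mouse was left out. Without TN2 there were 24, without M1N 81, without TN1 96 and without M2N 2765. Each of these 4 fits leaves a pair with 1 mouse, assumed to vary like the others. The cause was not tested. Depth limits the members of low count most.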
